A study of Mus musculus with 9 samples.

Results

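The mouse genes named Spata (spermatogenesis associated), Tex (testis expressed), Spag (sperm associated antigen) and Tsga (testis specific gene A) were followed in whole testis of Swiss albino males aged 8, 16 and 24 days. They were chosen by symbol, among array rows that carry a single gene symbol, and 6 genes of these names that belong to synaptonemal complex, recombination or axonemal central pair sets (Spata22, Tex12, Spag6, Spag6l, Spag16 and Spag17) were left out. This gave 75 of the 19935 measured genes, with 28 Spata, 36 Tex, 8 Spag and 3 Tsga genes. Spata31d1b, Tex13d, Tex52 and Tsga10ip were not analysed here.

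The animals came from an inbred line and received no treatment, and age is the only difference between the groups that the labels state. Each age had 3 arrays, 9 in all, which the submitters describe as biological replicates; the labels do not say whether animals were pooled. The labels state the ages and the comparisons of 16 with 8, 24 with 16 and 24 with 8 days, which follow the first wave of spermatogenesis. Each value is a log2 difference from the median array of the gene's row, so that it compares arrays and not the abundance of one transcript with another.

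These symbols record how the genes were found, through expression in testis or through antibodies against sperm, and not a shared protein fold or pathway. The proteins work in settings as different as meiotic recombination, the intercellular bridges of germ cells, the mitotic spindle, cilium assembly, the acrosome and the mitochondrial sheath of the sperm tail. In the first wave germ cells advance in near synchrony from spermatogonia through meiotic spermatocytes to haploid round spermatids, so that a sample of whole testis gains more advanced germ cells with age. In such samples more cells of a type and more RNA per cell cannot be told apart.

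Most of the genes were higher at 24 days than at 8 days, and they reached that level along separate courses. With limma and a Benjamini-Hochberg adjusted p of 0.05 over all genes as the threshold for a call, 18 genes had risen by 16 days and another 36 rose between 16 and 24 days without a call before. The remaining genes were 14 that rose in no comparison and did not fall over the span, and 7 that fell over the whole span. No gene was called as risen over the whole span alone.

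Start sites of genes of the early and the late course are shown here because their CG pairs, the sites of DNA methylation in mammals, differed in number. Each sequence is the 150 bases before the RefSeq start site on GRCm38.p6, written 5′ to 3′ on the strand of the gene, with CG pairs in capitals. The genes have the largest rise of their course among those with a single entry in the RefSeq promoter table, and they were picked after the values were seen. The 4 genes of the early course are Spata4 on the plus strand (chr8:54600631-54600780), Spata16 on the plus strand (chr3:26637481-26637630), Tex101 on the minus strand (chr7:24672051-24672200) and Spata17 on the minus strand (chr1:187215447-187215596).
Spata4: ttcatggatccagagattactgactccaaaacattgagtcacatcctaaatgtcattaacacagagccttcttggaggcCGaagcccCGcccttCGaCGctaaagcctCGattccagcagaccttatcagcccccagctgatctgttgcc
Spata16: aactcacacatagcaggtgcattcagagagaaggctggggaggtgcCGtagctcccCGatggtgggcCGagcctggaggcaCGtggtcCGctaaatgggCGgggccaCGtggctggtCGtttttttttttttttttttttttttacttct
Tex101: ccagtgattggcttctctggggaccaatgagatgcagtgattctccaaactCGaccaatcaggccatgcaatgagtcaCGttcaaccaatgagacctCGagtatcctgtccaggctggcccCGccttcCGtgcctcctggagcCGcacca
Spata17: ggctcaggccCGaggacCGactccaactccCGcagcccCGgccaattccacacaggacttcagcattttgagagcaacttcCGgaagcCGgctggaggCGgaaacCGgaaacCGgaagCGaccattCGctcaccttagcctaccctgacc

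The 4 genes of the late course are Spata31 on the plus strand (chr13:64917256-64917405), Tex36 on the minus strand (chr7:133602116-133602265), Spata21 on the plus strand (chr4:141088195-141088344) and Tex21 on the minus strand (chr12:76246747-76246896).
Spata31: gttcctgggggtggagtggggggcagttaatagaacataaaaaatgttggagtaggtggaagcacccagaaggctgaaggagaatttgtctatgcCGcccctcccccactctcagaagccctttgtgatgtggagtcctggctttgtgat
Tex36: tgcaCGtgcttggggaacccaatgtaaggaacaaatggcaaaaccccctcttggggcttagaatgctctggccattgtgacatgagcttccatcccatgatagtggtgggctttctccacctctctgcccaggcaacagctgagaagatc
Spata21: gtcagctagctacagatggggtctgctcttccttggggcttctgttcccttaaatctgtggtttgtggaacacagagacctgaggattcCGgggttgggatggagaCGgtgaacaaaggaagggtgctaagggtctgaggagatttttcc
Tex21: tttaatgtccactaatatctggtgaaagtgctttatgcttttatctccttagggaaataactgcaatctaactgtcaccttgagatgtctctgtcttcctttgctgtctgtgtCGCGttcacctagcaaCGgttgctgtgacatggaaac
The early genes hold 5, 8, 6 and 11 CG pairs in these stretches, in the order printed, and the late genes hold 1, 1, 2 and 3.

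The same held over the genes with an entry, 63 of 75, taken over 300 bases from 250 before to 50 after the start site. The measure is the number of CG pairs over the number that the C and G content would give, averaged over the start sites of a gene. Its median was 0.727 over the 15 early genes, 0.175 over the 32 late genes and 0.612 over the 16 others. A ratio of at least 0.6 was found in 11 of 15 early genes (73.3%), 5 of 32 late genes (15.6%) and 8 of 16 others (50.0%). Over all measured genes of the same courses the shares were 69.3% of 1701 early genes, 44.3% of 1153 late genes and 49.4% of 12707 others, with medians of 0.752, 0.499 and 0.592. The early genes of these names therefore sat close to all early genes in this description, and the late ones had a lower median than all late genes; neither gap was tested. Median GC content was 60.3% in the early, 51.2% in the late and 54.0% in the other genes.

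**Figure D1:**
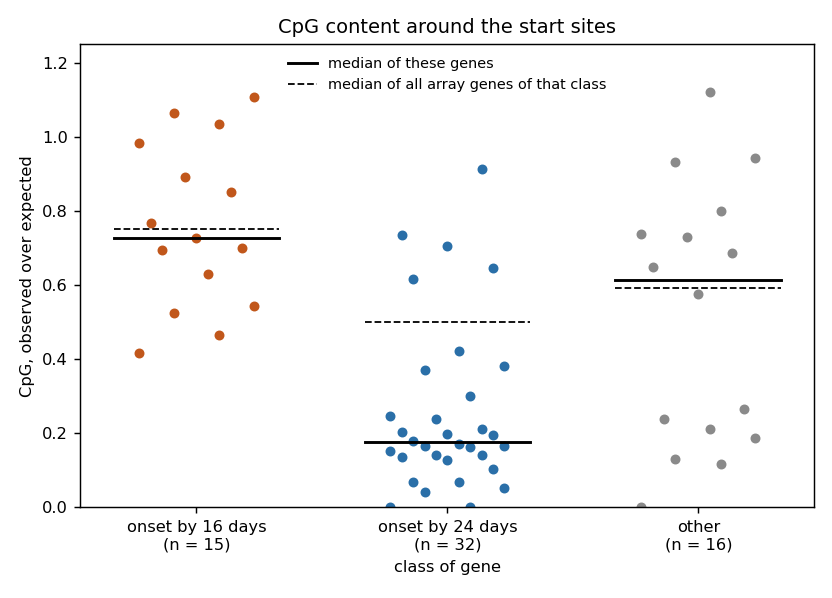
Observed over expected CG pairs (y axis, a ratio without unit) in the 300 bases around the start site of each of the 63 genes with a RefSeq promoter entry, by course of expression (x axis). Each point is a gene, the solid line is the median of the Spata, Tex, Spag and Tsga genes (0.727 early, 0.175 late, 0.612 other) and the dashed line is the median of all measured genes of that course.

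The same 300 bases were searched on both strands for 5 short motifs known from testis or general promoters, none of which lies within another, although GTTGCCA and the reverse strand of CAACTG share the letters GTTG and can overlap. TGACGT is the core of the cAMP response element bound by CREM in spermatids. It occurred in 10 of 63 genes (15.9%) and in 10.2% of all 15561 measured genes with an entry. The 10 were 6 of the late course, Tex36 and Spag4 among them, 2 of the early course (Spata6 and Spata18) and 2 others. That is 13.3% of the early and 18.8% of the late genes, beside 11.2% and 11.9% of all measured genes of those courses. CAACTG, a MYB element, occurred in 10 genes (15.9%) against 13.8%. GTTGCCA, part of the X-box bound by RFX proteins, occurred in 5 genes (7.94%) against 4.70%. These were Spata4, Spag8 and Spata33 of the early course and Spata31d1a and Tex33 of the late one. Its share was 20.0% of the early and 6.25% of the late genes, beside 8.94% and 8.5% of all measured genes of those courses. None of these gaps was tested. GCGGGAA, an E2F type element, occurred in 5 genes (7.94%) against 7.39%, and TATAAA in 6 genes (9.52%) against 13.6%. Such matches describe the letters and show no binding.

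Beside the named genes, markers of testis cell types were read on the same arrays, where they give RNA levels and not cell numbers. All 6 markers of spermatogonia fell from 16 to 24 days, all 6 of pachytene spermatocytes rose from 8 to 16 days, and all 6 of haploid spermatids rose from 16 to 24 days, by a median of 4.42. From 8 to 16 days 0 of the 6 haploid markers were called by limma, and 0 had an unadjusted p under 0.05. The mean over the pachytene markers ran from -3.64 to -3.50 on the 8-day arrays, from -0.20 to 0.56 on the 16-day arrays and from 1.37 to 1.51 on the 24-day arrays. The mean over the haploid markers ran from -0.27 to -0.005 at 8 days, from -0.31 to -0.005 at 16 days and from 3.55 to 4.78 at 24 days. Sertoli markers fell in 6 of 6 cases over the whole span, Leydig markers in 4 of 4 and macrophage markers in 2 of 4. The part of these shifts in the changes of the Spata, Tex, Spag and Tsga genes was not tested. The 1027 olfactory receptor genes, which testis is not known to express widely, had raised medians on 2 arrays. These were 0.17 on 8-day replicate 1 and 0.17 on 16-day replicate 2, while the other 7 arrays lay between -0.05 and 0.03. The medians over all genes on these 2 arrays were 0.12 and 0.02, so 8-day replicate 1 was raised over all genes too.

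From 8 to 16 days 18 of the 75 genes rose (24.0%), where 10.4% of all genes rose, and 2 fell (2.67%), where 14.3% of all genes fell. The question of this comparison is which transcripts gain as the first germ cells pass through meiosis. Of the 18 rises, 11 reached 2-fold. The median change was 0.09 over the 75 genes and -0.02 over all genes. All 20 called genes had arrays of the 2 ages that did not overlap. The same was not counted over all called genes, so it marks nothing particular to these.

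Spata4, a gene known for expression in testis, changed most. Its values were -5.70, -6.07 and -5.98 at 8 days, 0.00, 0.34 and -0.04 at 16 days and 1.14, 0.93 and 0.99 at 24 days. All arrays of an age stood together and no ages overlapped. The rise to 16 days was 6.02 ± 0.13 (limma's moderated SE, n = 3 per age), or 64.8-fold, with a limma adjusted p of 7.55e-09. A further 0.92 ± 0.13 followed by 24 days (adjusted p = 9.33e-04), so 86.7% of the change over the whole span lay before 16 days.

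Spata16 encodes a Golgi protein that takes part in building the acrosome. Its values were -2.18, -2.63 and -2.57 at 8 days, 0.00, 0.84 and -0.27 at 16 days and 1.75, 1.58 and 1.57 at 24 days. The 16-day arrays were the most spread, with replicate 2 highest, and still lay apart from both other ages. The changes were 2.65 ± 0.25 (adjusted p = 4.62e-05) and then 1.44 ± 0.25 (adjusted p = 0.00233).

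Tsga10, whose protein is found in the neck and midpiece of sperm, stood at -2.37, -2.19 and -2.04 at 8 days, at -0.02, 0.38 and 0.00 at 16 days and at 1.10, 1.07 and 0.87 at 24 days. It rose by 2.32 ± 0.13 (adjusted p = 1.88e-06) and again by 0.90 ± 0.13 (adjusted p = 0.00109), without overlap between ages. Other early genes rose by about equal steps on the log2 scale. Spata17, which encodes an IQ motif protein, rose by 1.64 ± 0.17 and then 1.67 ± 0.17. Spata6, needed for the connecting piece between sperm head and tail, rose by 1.31 ± 0.13 and then 1.14 ± 0.13.

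Tex101 is a surface glycoprotein of germ cells held by a lipid anchor, which sperm need for the maturation of ADAM3. It stood at -1.69, -1.47 and -1.61 at 8 days, at 0.11, 0.18 and 0.21 at 16 days and at -0.07, 0.28 and 0.00 at 24 days. The 8-day arrays lay far below the rest, while the 16-day and 24-day arrays overlapped. It rose by 1.75 ± 0.11 (adjusted p = 3.01e-06) and then differed by -0.10 ± 0.11 (adjusted p = 0.489). Tex30 had the same course, with 0.64 ± 0.14 and then -0.04 ± 0.14.

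Spag9, a scaffold of JNK signalling also known as JIP4, rose and then fell. Its values were -0.04, 0.00 and -0.07 at 8 days, 0.20, 0.27 and 0.20 at 16 days and -0.10, 0.05 and -0.02 at 24 days. The 16-day arrays lay above all others. The changes were small, 0.26 ± 0.08 (adjusted p = 0.0349) and -0.25 ± 0.08 (adjusted p = 0.0351), and both calls were lost without 8-day replicate 3, without any 1 of the 16-day arrays or without 24-day replicate 3.

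The other early genes rose in both intervals. Spata1 gained 1.79 ± 0.15, Spata24 1.56 ± 0.14, Tex2, which encodes a lipid transfer protein of the endoplasmic reticulum, 1.09 ± 0.16, and Spata33, which anchors calcineurin in the sperm midpiece, 1.08 ± 0.11 by 16 days. Spag5 (astrin, a protein of the mitotic spindle) gained 1.07 ± 0.09, Spag8 0.88 ± 0.14, Spag1, an assembly factor of axonemal dynein, 0.72 ± 0.12, Tex22 0.71 ± 0.17 and Tex9 0.46 ± 0.11. Tex9 gained a further 0.36 ± 0.11 by 24 days. That later call was lost without 16-day replicate 1, 16-day replicate 3, 24-day replicate 1 or 24-day replicate 2. Spata18, which acts in mitochondrial quality control as Mieap, gained 0.69 ± 0.19 by 16 days and 2.23 ± 0.19 afterwards, so 23.6% of its rise lay in the first interval. Its call at 16 days was lost without 8-day replicate 2, 8-day replicate 3, 16-day replicate 2 or 16-day replicate 3 (adjusted p = 0.0556 to 0.0898), and that of Tex22 without 8-day replicate 3 (adjusted p = 0.0559). Over the 14 genes that rose in both intervals and changed by at least 1 over the whole span, this share ran from 23.6% for Spata18 to 86.7% for Spata4, with a median of 54.0%.

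On the 16-day arrays replicate 2 was highest in 14 of the 15 genes that rose in both intervals, tied with replicate 3 in Spata18, and it was also highest in 6 of 6 pachytene markers. Around the threshold of the first interval, Spata18 (adjusted p = 0.0234), Spata5l1 (0.0242), Tex19.1 (0.0262) and Spag9 (0.0349) lay just inside by limma, and Tex13b (0.0506), Tex11 (0.0611), Spata2 (0.0632) and Tex14 (0.0859) just outside. The 2 falls, of Spata5l1 and Tex19.1, were both lost without 8-day replicate 2, without 8-day replicate 3 or without 16-day replicate 2.

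**Figure D2:**
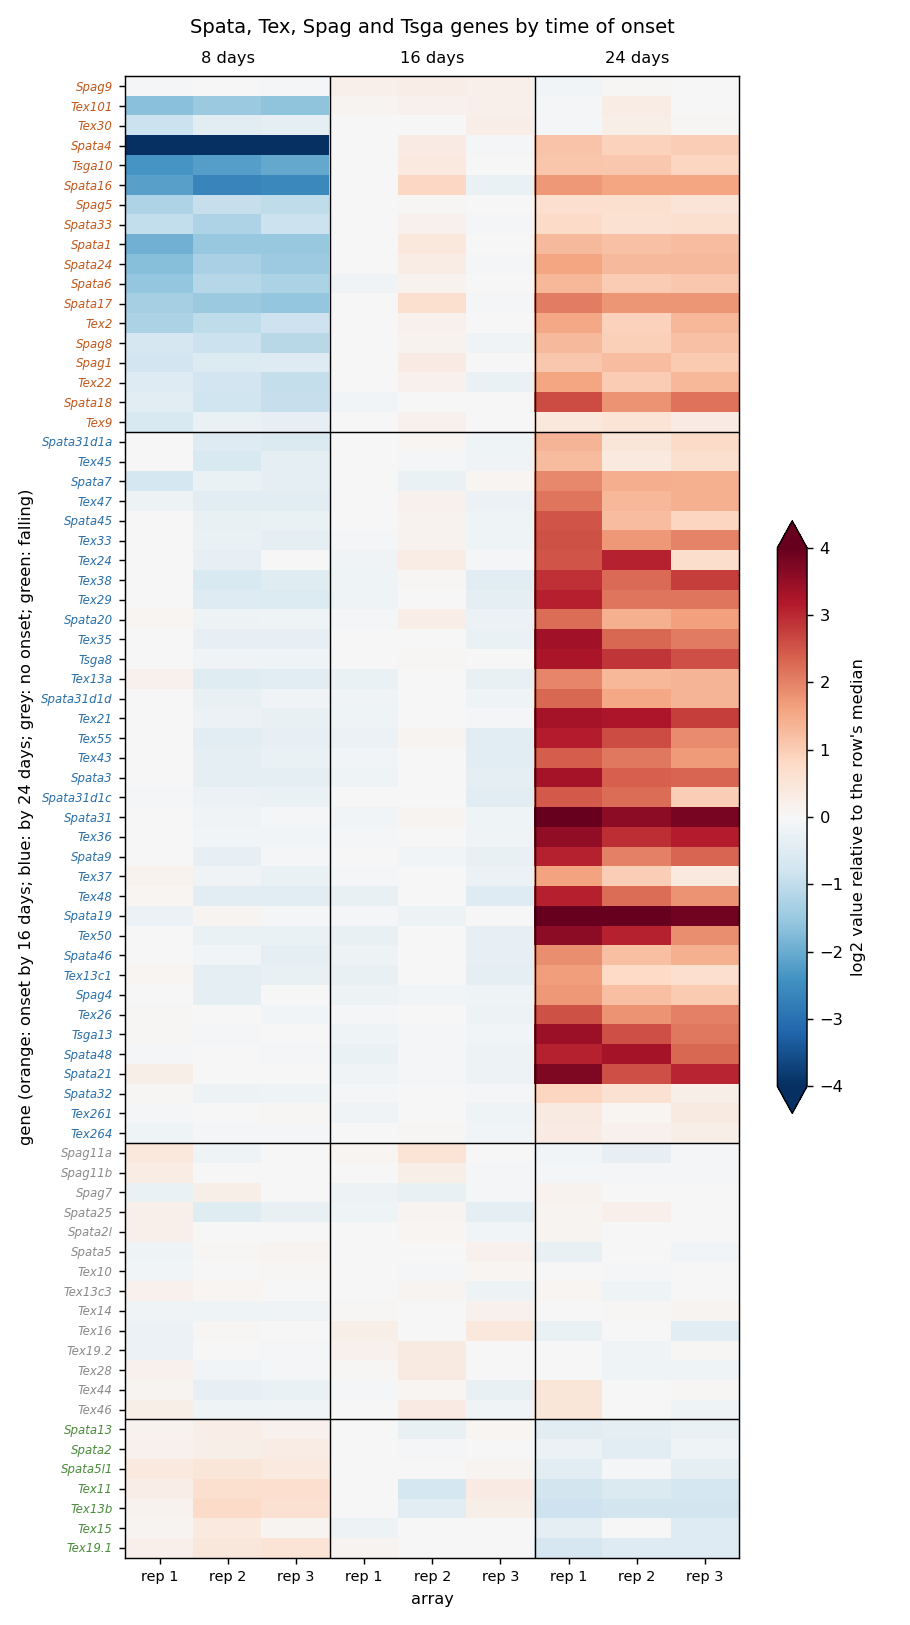
Log2 values relative to each row's median for the 75 genes (rows, sorted by course and, within it, by the share of the rise reached at 16 days) on the 9 arrays (columns, 3 per age), with colour limits of -4 and 4. Label colour marks the course: 18 genes rose by 16 days, 36 rose from 16 to 24 days alone, and 7 fell over the whole span.

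From 16 to 24 days 51 of the 75 genes rose (68.0%), where 13.2% of all genes rose, and 5 fell (6.67%), where 20.1% of all genes fell. Here the question is which transcripts gain as the first haploid cells appear. The median change was 1.13 over the 75 genes and -0.16 over all genes, and 41 of 51 rises reached 2-fold. Since this comparison and the first share the 16-day arrays, their values are given side by side and not correlated. Of the 51, 36 had no earlier call, which is 48.0% of the 75 genes, where 7.23% of all genes followed that course. Those 36 were 14 Spata, 19 Tex, 1 Spag and 2 Tsga genes.

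Spata19, a protein of the mitochondrial sheath around the sperm midpiece, had the largest late rise. It stood at -0.22, 0.10 and -0.07 at 8 days, at -0.07, -0.20 and 0.00 at 16 days and at 4.59, 4.31 and 3.87 at 24 days. The 8-day and 16-day arrays overlapped and the 24-day arrays lay far above them. The changes were -0.03 ± 0.17 (adjusted p = 0.97) and 4.35 ± 0.17, or 20.4-fold (adjusted p = 4.33e-07).

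Spata31, which named a large gene family of germ cells, stood at 0.00, -0.15 and -0.08 at 8 days, at -0.10, 0.11 and -0.17 at 16 days and at 4.38, 3.57 and 3.79 at 24 days. Its rise of 3.96 ± 0.18 (15.6-fold, adjusted p = 7.05e-07) came after a first interval of 0.03 ± 0.18. The family members Spata31d1c, Spata31d1d and Spata31d1a also rose, by 2.05 ± 0.32, 1.83 ± 0.21 and 0.91 ± 0.22. Copies of this family are alike in sequence and could share probe signal, so their separate values are uncertain.

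Tsga8, an X-linked gene of haploid cells, stood at 0.00, -0.13 and -0.16 at 8 days, at -0.01, 0.06 and -0.03 at 16 days and at 3.27, 2.85 and 2.58 at 24 days. It rose by 2.89 ± 0.15 (adjusted p = 1.43e-06) in the second interval alone. Tex36 stood at 0.02, -0.12 and -0.12, then at -0.06, 0.00 and -0.15, then at 3.55, 2.94 and 3.15. Only its 24-day arrays stood apart, with a rise of 3.29 ± 0.14 (adjusted p = 6.28e-07).

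**Figure D3:**
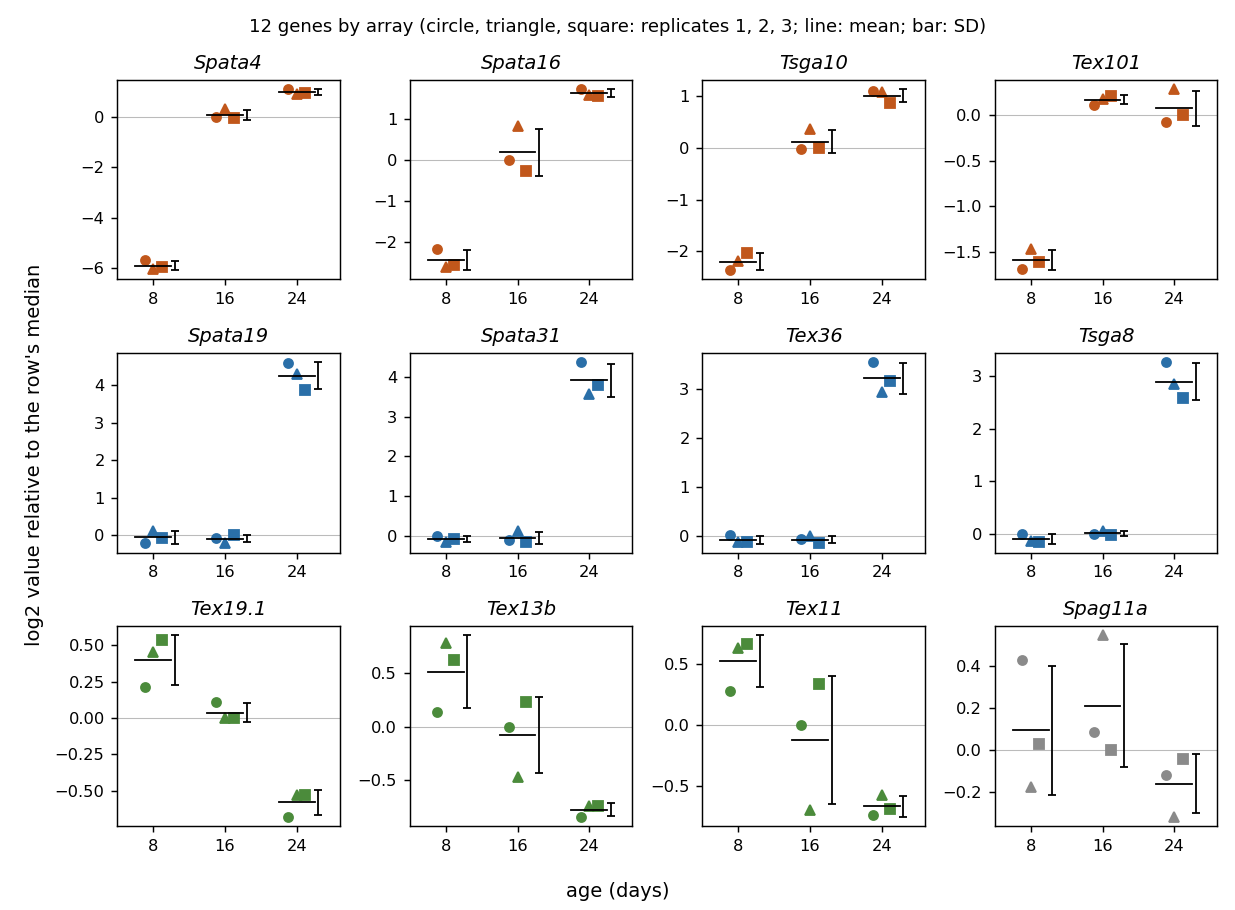
Log2 values relative to the row median (y axis, with its own range in each panel) against age in days (x axis) for 12 genes, with circles, triangles and squares for replicates 1, 2 and 3, a line through the means and SD bars (n = 3). Spata4, Spata16, Tsga10 and Tex101 were up at 16 days, Spata19, Spata31, Tex36 and Tsga8 at 24 days alone, Tex19.1, Tex13b and Tex11 fell over the span, and Spag11a was not called.

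Another 8 late genes rose by between 2.73 and 3.26. Spata21, which encodes an EF-hand protein, rose by 3.26 ± 0.23, Tex21 by 3.18 ± 0.15, Spata48 by 3.07 ± 0.21, Tex50 by 3.04 ± 0.34, Spata3 by 2.86 ± 0.24, Tex38 by 2.85 ± 0.21, Tsga13 by 2.82 ± 0.26 and Tex55 by 2.73 ± 0.27. All 8 had adjusted p-values of 2.09e-04 or less, and in each the 24-day arrays lay above all others. Over the 36 late genes the rise ran from 0.27 for Tex264, a receptor for selective autophagy of the endoplasmic reticulum, to 4.35 for Spata19, with a median of 2.16. Tex261, which acts in export from the endoplasmic reticulum, rose by 0.36 ± 0.10 and belongs with Tex264 to the small changes. The calls of both for this interval were lost without 16-day replicate 1, 16-day replicate 3, 24-day replicate 1 or 24-day replicate 3, with changes of 0.31 to 0.35 for Tex261 and 0.23 to 0.28 for Tex264.

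The late genes also differed in how well the 24-day arrays agreed among themselves. Tex24 stood at 2.53, 3.08 and 0.71 at 24 days and Spata45 at 2.52, 1.23 and 0.86, so in both the 24-day mean rested on unequal arrays. Tex24 rose by 2.07 ± 0.47 (adjusted p = 0.0094) and Spata45 by 1.55 ± 0.34 (adjusted p = 0.00775). Replicate 1 was the highest 24-day array in 33 of the 36 late genes and in 6 of 6 haploid markers. The first interval held little of the late rise: of the 33 late genes that changed by at least 1 over the span, the share reached at 16 days ran from -7.08% for Spata21 to 26.3% for Spata31d1a, with a median of 2.19%.

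Spata20 and Spata48 had 2 array rows each, which were averaged. The rows of Spata20, a thioredoxin-like protein of sperm, disagreed, with differences of 0.09 and 3.45 between the 24-day and 16-day means. Those of Spata48 lay closer, with differences of 2.26 and 3.88.

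**Figure D4:**
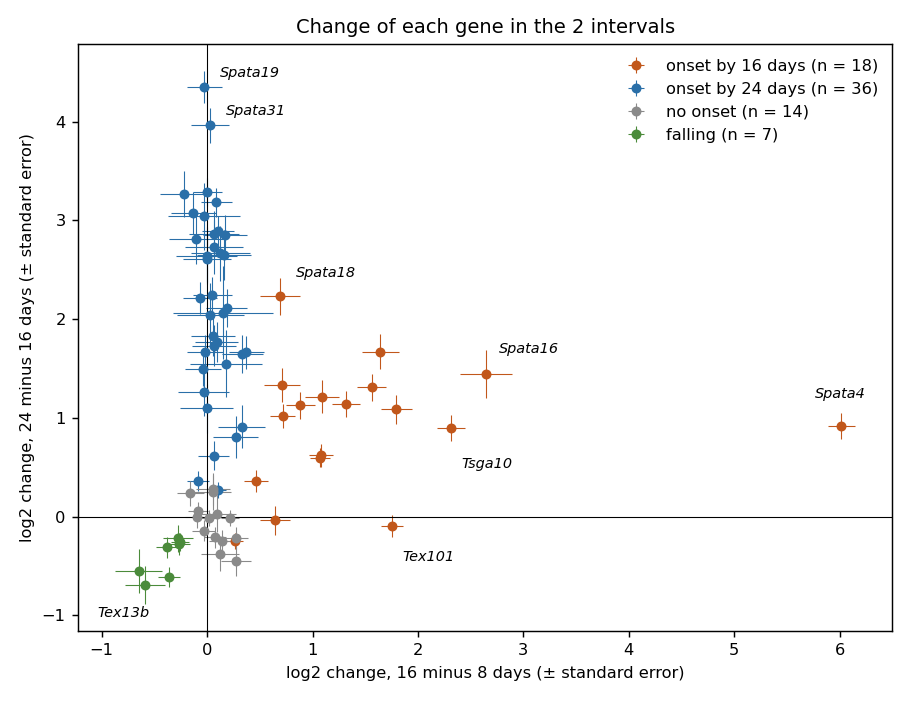
Log2 change from 8 to 16 days (x axis) against log2 change from 16 to 24 days (y axis) for the 75 genes, each a point with limma's moderated SE as bars and colour for the course. Spata4 lies far right at 6.02 and 0.92, Spata19 lies at the top at -0.03 and 4.35, and the late genes line up above 0 on the x axis; both axes use the 16-day arrays.

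Over the whole span 53 genes rose (70.7%), where 19.19% of all genes rose, and 7 fell (9.33%), where 35.19% of all genes fell. The median change was 1.74 over the 75 genes and -0.18 over all genes, a difference of 1.92, and 48 of 53 rises reached 2-fold. Centring each array on its median shifted the comparisons of all genes by 0.03, 0.09 and 0.12. Spata4 had the largest whole-span rise, 6.94 ± 0.13 or 123-fold, followed by Spata19 with 4.32 ± 0.17 and Spata16 with 4.09 ± 0.25. The 53 included 22 of 28 Spata, 24 of 36 Tex, 4 of 8 Spag and 3 of 3 Tsga genes.

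The 7 genes that fell over the span did so by far less than most rises. Tex19.1, which limits retrotransposons in germ cells and binds the ubiquitin ligase Ubr2, stood at 0.21, 0.45 and 0.54 at 8 days, at 0.11, 0.00 and 0.00 at 16 days and at -0.68, -0.53 and -0.53 at 24 days. No ages overlapped. It fell by 0.36 ± 0.10 (adjusted p = 0.0262) and then by 0.61 ± 0.10 (adjusted p = 0.00201), and by 0.98 ± 0.10 over the span (adjusted p = 2.54e-05).

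Tex11, an X-linked gene for meiotic crossovers, stood at 0.28, 0.63 and 0.66 at 8 days, at 0.00, -0.70 and 0.33 at 16 days and at -0.74, -0.58 and -0.69 at 24 days. The 16-day arrays were spread so widely that they overlapped both other ages. It fell by 1.20 ± 0.22 over the span (adjusted p = 0.00113), and neither interval alone was called (adjusted p = 0.0611 and 0.0837).

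Tex13b, also X-linked, stood at 0.13, 0.78 and 0.62 at 8 days, at 0.00, -0.46 and 0.23 at 16 days and at -0.84, -0.74 and -0.73 at 24 days. The 8-day and 16-day arrays overlapped and the 24-day arrays were lowest. It fell by 1.28 ± 0.19 over the span (adjusted p = 2.89e-04). Its relatives Tex13a and Tex13c1 rose from 16 to 24 days, by 1.73 ± 0.21 and 1.26 ± 0.24, and Tex13c3 was not called, with -0.01 ± 0.11. These copies too are alike and could share probe signal.

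Smaller falls over the span were those of Spata5l1, a AAA ATPase, by 0.69 ± 0.11 (adjusted p = 3.07e-04), Spata13 by 0.54 ± 0.11 (adjusted p = 0.00159), Spata2, an adaptor that brings the deubiquitinase CYLD to its targets, by 0.51 ± 0.09 (adjusted p = 7.40e-04), and Tex15, which acts in meiotic recombination and transposon silencing, by 0.50 ± 0.14 (adjusted p = 0.0127, and 0.0536 without 24-day replicate 3). The 5 falls from 16 to 24 days were those of Tex13b, Tex19.1, Tex16, Spata5l1 and Spag9. Only 1 of them, Tex19.1, was called without 16-day replicate 1, without 16-day replicate 3, without 24-day replicate 1 or without 24-day replicate 3.

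The genes were also read by the role of their products, from textbook knowledge. Many members have no role of which one can be sure and were left out of this reading. The placing of some that were kept is uncertain. Of 8 genes of meiosis, intercellular bridges and genome defence 4 fell over the span and 1 rose, beside 35.19% and 19.19% of all genes. The AAA ATPases Spata5 and Spata5l1 were placed here too, and so was Tex101, the 1 that rose, although its known role on the germ cell surface is none of these. Tex14, required for intercellular bridges, was not called and had whole-span change 0.20 ± 0.08 (adjusted p = 0.0618). Tex19.2, the close relative of Tex19.1, was not called either, with 0.06 ± 0.11.

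Of 6 genes of the sperm head, nucleus and acrosome, 2 rose from 8 to 16 days, Spata16 and Spag8, and 6 of 6 rose from 16 to 24 days, beside 10.4% and 13.2% of all genes. Spag4, a SUN domain protein of the nuclear envelope, rose late by 1.50 ± 0.17, and Spata46, a protein of the sperm nuclear envelope, by 1.67 ± 0.17. Of 9 measured genes placed with the sperm neck, midpiece and tail, 6 rose by 16 days (Spata4, Tsga10, Spata24, Spata6, Spata33 and Spata18). From 16 to 24 days 9 of 9 rose, although 1 of the 2 rows of Spata20 changed by only 0.09. The placing of Spata3, Spata4 and Spata24 is uncertain, and so is that of Spata18, described above by mitochondrial quality control. The median change of these 9 was 1.08 and then 1.31.

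Of the 14 genes of the spindle, cilium or signalling, which many tissues express, 6 rose from 8 to 16 days, beside 10.4% of all genes. From 16 to 24 days 7 of the 14 rose and 1 fell, beside 13.2% and 20.1% of all genes. Spata7, a protein of the photoreceptor cilium, rose late by 1.67 ± 0.17. Tex10, a factor of ribosome assembly, had changes of 0.02 ± 0.08 and -0.02 ± 0.08 and was not called, and neither were Spag7 and Spata2l.

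**Figure D5:**
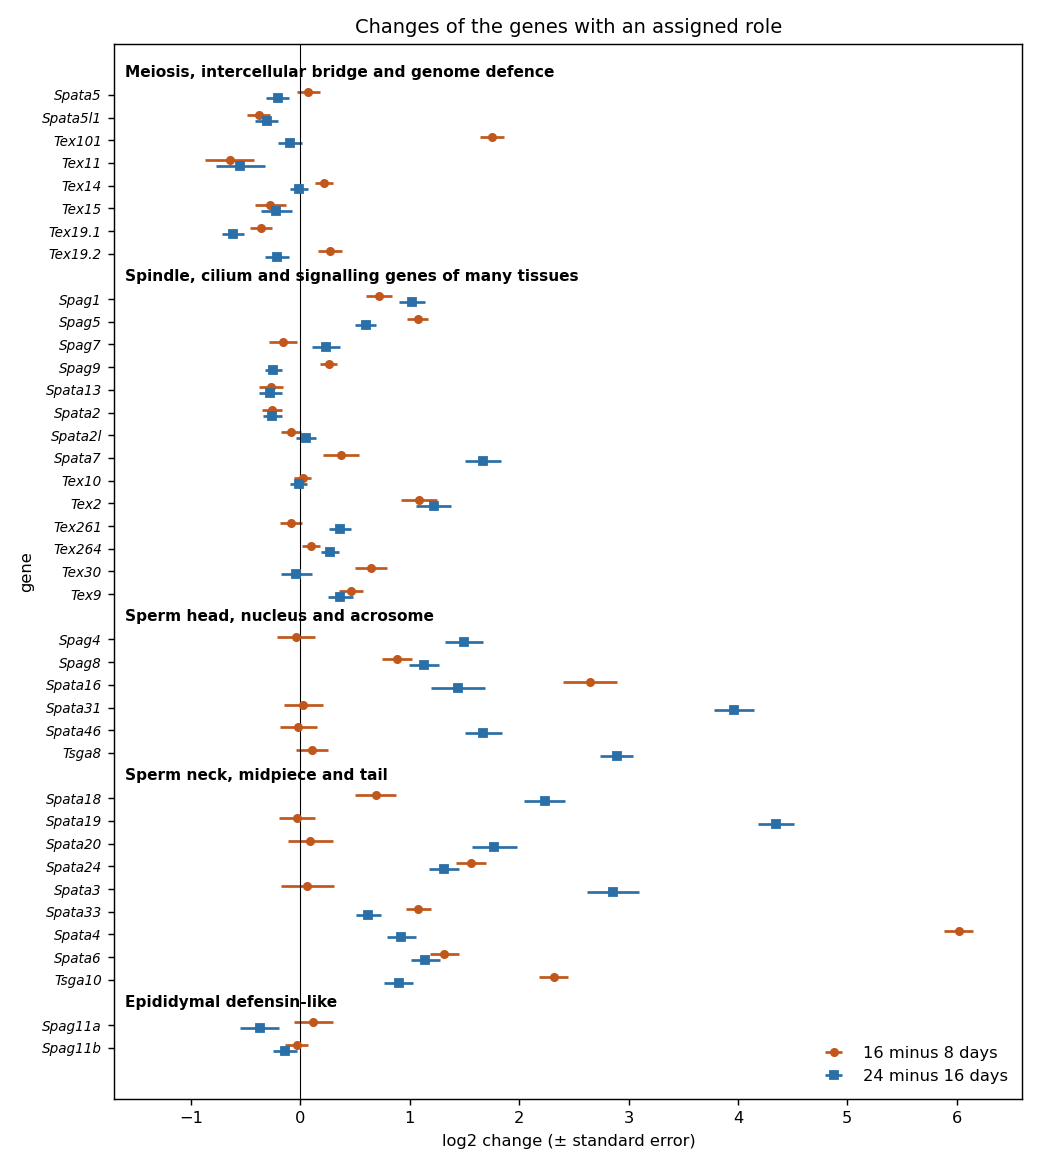
Log2 change from 8 to 16 days and from 16 to 24 days (x axis) for each gene with an assigned role (y axis, grouped by role), with limma's moderated SE as bars. The genes of the sperm head and those of the neck, midpiece and tail all lie to the right of 0 in the second interval. All 8 genes of meiosis, intercellular bridges and genome defence lie to the left, and 2 of them were called as fallen. Genes of other roles, such as Spag9, Spata2 and Spata13, lie to the left as well.

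Spag11a and Spag11b, defensin-like genes of the epididymis, were called in 0 comparisons by limma, with 0 at an unadjusted p under 0.05. Spag11a stood at 0.43, -0.18 and 0.03 at 8 days, at 0.08, 0.55 and 0.00 at 16 days and at -0.12, -0.32 and -0.04 at 24 days. Its highest arrays, 8-day replicate 1 and 16-day replicate 2, are those on which olfactory receptor genes were raised, and they were highest of their age in 7 of 7 measured epididymis markers. Those markers were called in 0 comparisons by limma, with 0 at an unadjusted p under 0.05.

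Of the 8 X-linked genes (Tex11, Tex13a, Tex13b, Tex13c1, Tex13c3, Tex16, Tex28 and Tsga8), limma called 0 as risen or fallen from 8 to 16 days, with 2 falls and 0 rises at an unadjusted p under 0.05. Over all genes 10.4% rose and 14.3% fell in that interval. From 16 to 24 days 3 rose (Tsga8, Tex13a and Tex13c1) and 2 fell (Tex13b and Tex16), beside 13.2% and 20.1% of all genes. With 8 genes such counts are too small to set apart from those shares. Of the 67 autosomal genes 18 rose and 2 fell in the first interval, and 48 rose and 3 fell in the second. The difference between X and autosomes was not tested.

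The other proteins with which these genes' products work were followed in a list of 28 genes, 27 of them measured, that holds 5 of the 6 genes left out by the naming rule. Of the 27, 10 rose and 1 fell from 8 to 16 days, beside 10.4% and 14.3% of all genes. From 16 to 24 days 13 rose and 4 fell, beside 13.2% and 20.1%. Over the span 19 rose and 5 fell, beside 19.19% and 35.19%. Spag17 and Spag16, of the central pair of the axoneme, rose by 3.58 ± 0.20 and 2.87 ± 0.21 by 16 days and by 1.40 ± 0.20 and 1.27 ± 0.21 afterwards, whereas Spag6 of the same structure rose by 2.82 ± 0.12 in the second interval. The sperm calcineurin subunits Ppp3r2 and Ppp3cc, partners of Spata33, rose by 3.29 ± 0.21 and 1.03 ± 0.09 in the first interval. Odf2 of the outer dense fibres rose by 1.51 ± 0.16 and 1.31 ± 0.16. Sun5, which like Spag4 has a SUN domain, rose late by 3.91 ± 0.17. The calcium channel subunits Catsper1, Catsper3 and Catsper4 rose late by 2.54 ± 0.20, 3.07 ± 0.22 and 2.54 ± 0.21, while Catsper2 rose in both intervals, by 1.85 ± 0.24 and 1.77 ± 0.24.

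Among partners in meiosis, Meiob and its binding partner Spata22 rose by 3.39 ± 0.20 and 2.71 ± 0.17 by 16 days and were not called afterwards, at -0.25 ± 0.20 and -0.16 ± 0.17, the course also seen for Tex101. Ubr2, which binds Tex19.1, fell by 0.49 ± 0.09 from 16 to 24 days (adjusted p = 0.00256). Piwil4, a PIWI protein of transposon silencing, fell by 0.38 ± 0.10 and then 0.69 ± 0.10. The ubiquitin ligase subunit Rnf31, of the Spata2 and CYLD complex, fell by 0.63 ± 0.15 in the second interval.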

How the data were processed

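Total RNA of whole testis was labelled by a whole-transcript protocol and hybridised to 1-colour Affymetrix arrays, per the labels' protocols. The authors deposited log2 values centred so that every row has a median of 0 across arrays; base 2 is taken from their range, -6.07 to 6.05, and background correction, normalization and summarization are not given in the sources used here. Of 28815 rows, 21780 carried 1 gene symbol, 1605 several and 5430 none. All 75 gene IDs matched RefSeq (GRCm38.p6) under the same symbol. Blank cells, 89 among the 77 rows of these genes, were taken as 0, the row's median, and rows of a gene were averaged. Centred values allow no filter on dim genes, so all 75 were tested. Precision is limited by having 3 arrays an age.

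A linear model with 1 mean for each age was fitted to all 19935 genes by lmFit and eBayes of limma 3.58.1, under R 4.3.3, with 6 residual and 3.82 prior degrees of freedom. Tests were 2-sided. A call needed a p-value under 0.05 after Benjamini-Hochberg adjustment across the whole table. The p-values set the difference between age means against the spread between arrays of an age, pooled over the ages and moderated by eBayes. Errors are moderated standard errors, or SD for means. Named genes are called members with non-overlapping arrays, at most 12 rises and 8 falls a comparison in order of size, members with a listed role, and those next to the threshold; a few others are named for their course. The genes and lists were chosen with earlier results of these data known. Start site sequences come from RefSeq; protein sequences were not analysed here. Alternatives were array centring, blanks left missing, single rows, array weights, robust eBayes, only the ages compared, a 2-fold minimum, leaving out the arrays with raised olfactory receptor genes, a replicate block and each array left out. Python 3.11.15 with pandas 2.3.3 and matplotlib 3.10.9 made tables and figures.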

Additional observations from a re-analysis of the deposited data

How the results depend on the processing

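The 18 rises from 8 to 16 days became 11 with a 2-fold minimum. The 2 falls became 1 with centred arrays or only the ages compared, 5 with array weights, and 0 by limma with blanks left missing (6 at an unadjusted p under 0.05) or a 2-fold minimum. The 5 falls from 16 to 24 days became 1 with centred arrays, 2 with blanks left missing and 0 with a 2-fold minimum (8 at an unadjusted p under 0.05), and the 7 falls over the span became 2 with that minimum. With 1 array left out at a time, the rises numbered 15 to 18, 47 to 51 and 52 to 54 in the 3 comparisons, the falls 0 to 3, 1 to 6 and 6 to 7, and the late genes 34 to 38; the median changes ran from 0.03 to 0.19, from 1.04 to 1.21 and from 1.64 to 1.88. The cause of these losses was not tested.

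Of 136 called changes of single genes, 102 were called under every alternative run, and none changed direction. Leaving aside the 2-fold minimum, 13 of 18, 43 of 51 and 51 of 53 rises and 0 of 2, 0 of 5 and 6 of 7 falls were. Leaving out both arrays on which olfactory receptor genes were raised, 17, 52 and 55 genes rose and 3, 7 and 7 fell.

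Deviations of same-numbered arrays from the mean of their age correlated at -0.461 to 0.197. From 8 to 24 days they stood at 0.195 and 0.197, and different-numbered arrays at -0.184 and -0.183. For the other pairs of ages same-numbered arrays ran from -0.461 to -0.084 and different-numbered ones from 0.009 to 0.596. The 0.596 joined 8-day replicate 1 and 16-day replicate 2, where olfactory receptor genes were raised. These values do not settle whether the replicate numbers pair arrays. With a replicate block on the 6 numbered arrays, 13, 43 and 51 genes rose and limma called 0 falls in the first and 0 in the second interval (3 and 1 at an unadjusted p under 0.05); without the replicate block the same arrays gave 13, 45 and 52 rises and 0 and 1 falls.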
